A study of Mus musculus with 8 samples.

Results

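Genes for 8 secreted islet products other than insulin were followed across the libraries: Gcg, Sst, Ppy, Pyy, Npy, Ucn3, Ttr and Gast. They were taken from the expression table by gene name, and all 8 were found among its 44343 genes. The KO group is 4 libraries of beta cells from mice carrying MipCreER, Adar floxed on both alleles and R26R-EYFP. The Het group is 4 libraries from mice that carry the same Cre and reporter with Adar floxed/+. Every mouse received tamoxifen at the age of 1 month, as 2 doses of 8 mg, and RNA was sequenced from the YFP-positive cells that were sorted out of the islets 7 days later. MipCreER is a tamoxifen-activated Cre under an insulin promoter, and the YFP reporter lights up in cells where that Cre has worked, so the sort enriches cells that used the insulin promoter when tamoxifen was given. The number of mice behind a library is not given, so the p-values here compare libraries and not known numbers of mice. The main gene test, limma, shares the spread between libraries among genes of like level. The comparison asks how much RNA of hormones from other islet cells each sorted sample held, and whether genes tied to beta-cell identity differed between KO and Het.

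As background, the endocrine cells of a mouse islet are told apart by the hormone they make. Alpha cells make glucagon from Gcg, delta cells make somatostatin from Sst, and PP cells make pancreatic polypeptide from Ppy, while beta cells make insulin from Ins1 and Ins2 together with amylin from Iapp. Glucagon acts on beta cells and raises insulin secretion, somatostatin restrains beta and alpha cells alike, and urocortin 3 from mature mouse beta cells stimulates delta cells, so these genes belong to a local feedback circuit. Peptide YY (Pyy) and neuropeptide Y (Npy) share an ancestral fold with pancreatic polypeptide. Ttr encodes transthyretin, a carrier of thyroxine and retinol-binding protein that islets also make, and Gast encodes gastrin, a stomach hormone that is also made in the fetal pancreas.

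The coding stretch of the mature peptide is shown for the 3 relatives Ppy, Pyy and Npy, because closely matching copies could exchange reads in a gene count. Each stretch is 108 bases for 36 residues, from the mm10 transcripts of GENCODE M21, and the capitals mark the last 4 codons, which encode the carboxyl end that the receptors of this family recognise.
Ppy: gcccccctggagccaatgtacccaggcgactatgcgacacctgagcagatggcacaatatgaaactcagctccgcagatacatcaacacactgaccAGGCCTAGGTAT
Pyy: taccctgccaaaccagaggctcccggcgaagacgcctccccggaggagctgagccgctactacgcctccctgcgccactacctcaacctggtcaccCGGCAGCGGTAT
Npy: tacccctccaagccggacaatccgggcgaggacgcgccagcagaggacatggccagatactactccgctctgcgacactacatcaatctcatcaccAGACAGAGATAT
Pyy and Npy shared 76 of the 108 bases (70.4%), Ppy and Npy 61 (56.5%), and Ppy and Pyy 58 (53.7%). The longest identical run between any pair of the 3 transcripts was 10 bases. Ppy (ENSMUSG00000017316, chromosome 11, 102099930 to 102101319) and Pyy (ENSMUSG00000017311, chromosome 11, 102106676 to 102107832) are neighbours on the minus strand, 5357 bases apart. Npy (ENSMUSG00000029819) lies on chromosome 6, 49822710 to 49829507, plus strand. No member overlaps another annotated gene.

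For the principal alpha-cell and delta-cell hormones the promoter is shown, because these are the genes with the most reads among the hormones of other islet cells. The first sequence is the 250 bases before the RefSeq start of Gcg (chr2:62483654-62483903, minus strand, GRCm38.p6), with TATAAA on either strand in capitals. The second is a 30-base stretch upstream of the RefSeq start of Sst (chr16:23890874-23890903, minus strand, GRCm38.p6), with the palindrome TGACGTCA, the letters of the cyclic AMP response element, in capitals.
Gcg: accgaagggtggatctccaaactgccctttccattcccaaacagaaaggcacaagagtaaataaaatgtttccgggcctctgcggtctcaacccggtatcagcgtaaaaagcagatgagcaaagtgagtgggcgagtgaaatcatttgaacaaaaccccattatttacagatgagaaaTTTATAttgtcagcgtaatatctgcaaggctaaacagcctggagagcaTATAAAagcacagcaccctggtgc
Sst: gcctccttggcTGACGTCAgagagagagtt
The TATAAA of Gcg on the gene's strand lies 24 bases before the start, and the copy on the opposite strand lies 72 bases before it. TGACGTCA lies 48 bases before the RefSeq start of Sst. Promoters of 7 members were searched on both strands over the 250 bases before the start. TGACGTCA was in that of Sst, TATAAA in those of Gcg, Ppy and Gast, and the homeodomain core TAAT in those of Gcg, Sst, Ucn3 and Gast. Of 32851 mouse promoter windows of the same length, 1.55% hold TGACGTCA, 12.4% hold TATAAA and 54.9% hold TAAT. A match is a description of the letters only. The gene of Gcg (ENSMUSG00000000394) spans 62474530 to 62483650 of chromosome 2, and that of Sst (ENSMUSG00000004366) spans 23889573 to 23890958 of chromosome 16. These spans are those of GENCODE M21. The stretch printed for Sst lies inside its span, so GENCODE M21 and RefSeq differ in the start of Sst.

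The libraries held 5.37 to 15.9 M reads assigned to genes, as recovered from the deposited values. Those values are read counts divided by a size factor per library, called normalized counts here. Under that scaling the median of 6697 well-expressed genes (a mean of 200 or more) stood at 0.88, 0.96, -0.77 and -0.56 in KO 1 to KO 4 and between -0.46 and 0.22 in the Het libraries, in log2 units against the average of all libraries. Insulin reads (Ins1 and Ins2) took 2.69%, 6.95%, 9.10% and 3.20% of reads in KO 1 to KO 4, against 8.30%, 8.31%, 10.4% and 8.43% in Het 1 to Het 4. KO 1 and KO 4 thus held the lowest insulin shares, and levels set against insulin carry this difference. Adar was at 615 to 4030 normalized counts in KO libraries and 744 to 1187 in Het libraries, but a gene-level count spans all exons and does not measure the floxed part. Of 21498 genes tested with limma, 198 were higher in KO (0.921%) and 5 were lower (0.0233%) at a Benjamini-Hochberg adjusted p under 0.05, 0.944% in all.

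None of the 8 genes was called higher or lower in KO than in Het. Of the 7 with a mean of at least 10 normalized counts, which were tested, 0 passed the adjusted threshold in limma, in edgeR or in DESeq2. At an unadjusted limma p under 0.05, 1 was higher (Gcg) and 0 were lower, where 4.05% and 2.7% of all tested genes were. With libraries scaled by edgeR's trimmed mean of M-values (TMM), 1 was higher (Gcg) and 2 were lower (Npy and Ucn3) at an unadjusted p under 0.05, where 5.32% and 3.14% of all tested genes were. On whole reads at that unadjusted p, edgeR had 0 higher and 1 lower (Npy), where 4.75% and 1.91% of its 23320 genes were. DESeq2 had 2 higher (Gcg and Ppy) and 0 lower, where 3.65% and 0.974% of its 44333 genes were. No member had KO values all above or all below the Het values in normalized counts, where 2.19% of all tested genes were wholly above and 0.893% wholly below.

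**Figure D1:**
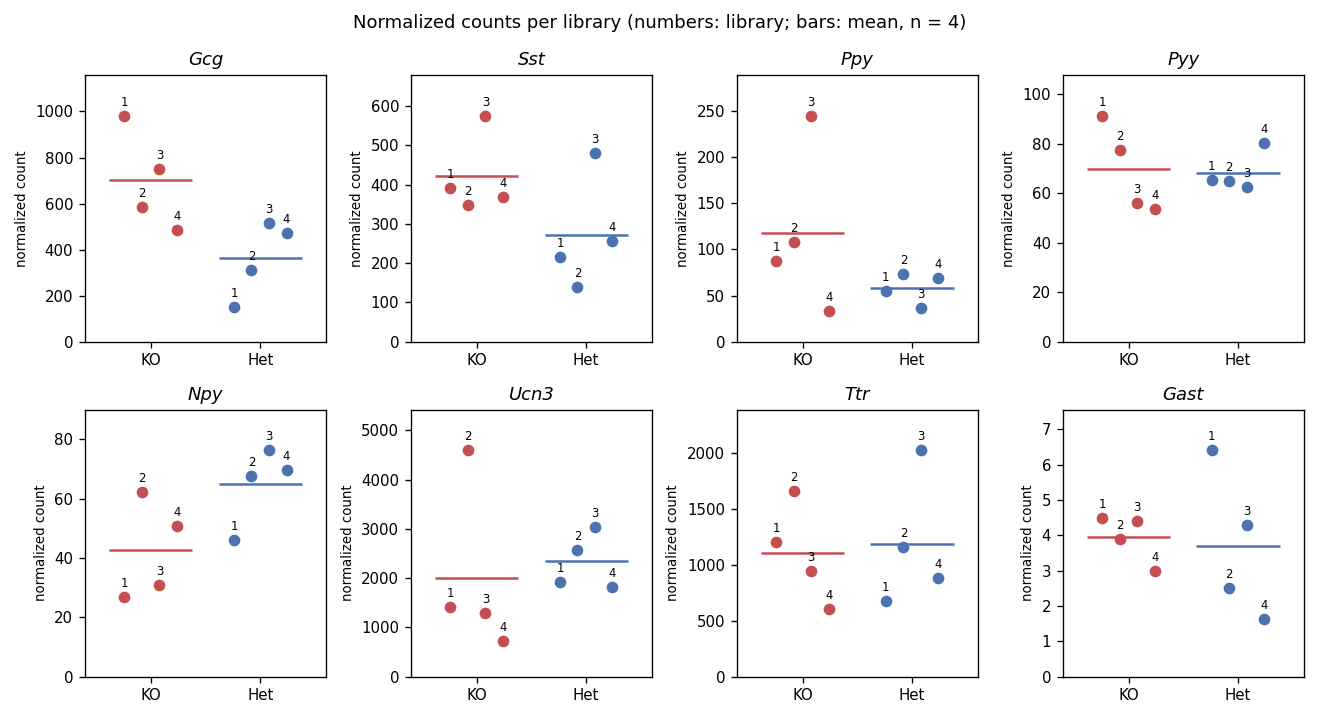
Normalized counts (vertical axes, from 0) of the 8 genes in each of the KO and Het libraries, with library numbers beside the points and a bar at each mean of 4. KO and Het points overlap in every panel, and single libraries stand high, such as KO 3 for Ppy at 245 and KO 2 for Ucn3 at 4593.

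Levels were also set per kilobase of exon so that genes could be compared with each other. Ucn3 averaged 1356 ± 1185 normalized counts per kb in KO libraries and 1582 ± 388 in Het libraries (SD, n = 4 each), the highest of the 8 genes. Ttr followed at 929 ± 376 in KO and 998 ± 500 in Het, and the ranges of these neighbours overlapped. Sst came next at 583 ± 145 in KO and 378 ± 204 in Het, and Gcg at 469 ± 145 in KO and 243 ± 112 in Het, again with overlapping ranges. Ppy at 236 ± 180 in KO and 117 ± 33.8 in Het, Pyy at 111 ± 28.6 in KO and 108 ± 12.8 in Het, and Npy at 75.3 ± 29.4 in KO and 115 ± 23.1 in Het were not separated from each other beyond their spread. Gast lay lowest, at 8.56 ± 1.51 in KO and 8.05 ± 4.60 in Het. For scale, Ins2 averaged 308081 in KO and 419369 in Het, and Iapp 98383 in KO and 79315 in Het. Olfactory receptor genes, which belong to sensory neurons, had a median per kb of 0.844 to 2.97 in KO libraries and 1.39 to 2.43 in Het libraries over 1011 genes. Their 95th percentile per kb was 3.02 to 7.80 in KO and 4.11 to 6.92 in Het.

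**Figure D2:**
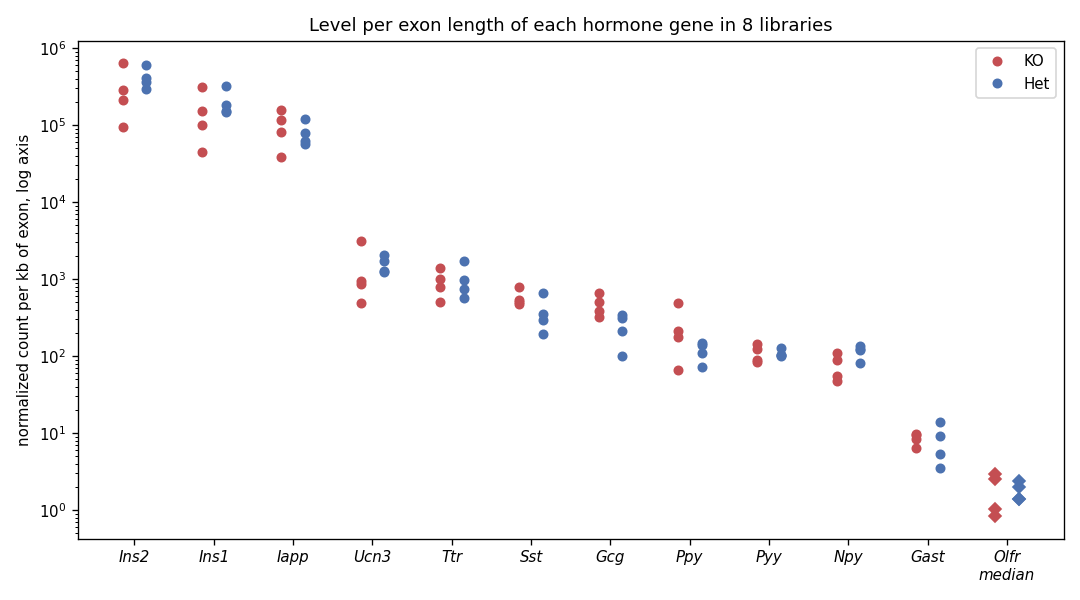
Normalized count per kilobase of exon (log axis) of the beta-cell hormones Ins2, Ins1 and Iapp, the 8 genes in order of level, and the median of 1011 olfactory receptor genes, with 1 point per KO or Het library. By their means the 8 genes lie between Iapp and the olfactory median, single points of Sst and Gcg overlap those of Ucn3, and Gast lies closest to that median.

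Gcg, the glucagon gene of alpha cells, had the largest limma fold change of the 7 tested genes under the deposited scaling, and it did not pass the adjusted threshold. With TMM scaling Npy differed more, at -0.87 against 0.83 for Gcg, in edgeR Ppy (0.89) and Npy (-0.80) differed more than Gcg (0.72), and in DESeq2 Ppy (1.01) differed more than Gcg (0.95). Its normalized counts were 982, 585, 750 and 486 in KO 1 to KO 4, against 150, 313, 517 and 473 in Het 1 to Het 4. KO 1, KO 2 and KO 3 lay above every Het library, while KO 4 lay between Het 4 and Het 3. The means were 701 ± 217 in KO and 363 ± 167 in Het (SD, n = 4 each). The log2 fold change was 1.05 ± 0.52 (SE; limma unadjusted p = 0.045, adjusted p = 0.722). Exact permutation of the log2 levels over the 70 arrangements, two-sided, gave p = 0.0571, where the smallest possible p is 0.0286. With TMM scaling the fold change was 0.83 ± 0.35 (limma adjusted p = 0.529). Leaving out Het 1, the library with the least Gcg, gave 0.67 ± 0.63, the smallest of the 8 such values. In RNA from sorted populations, more or fewer cells of a type and more or less RNA per cell cannot be told apart.

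As a share of reads Gcg was small in each library. It took 0.00690%, 0.00349%, 0.0127% and 0.00901% of reads in KO 1 to KO 4, against 0.00197%, 0.00355%, 0.00470% and 0.00721% in Het 1 to Het 4. These shares rest on 452 to 1096 Gcg reads in KO libraries and 117 to 603 in Het libraries. In KO 3, the highest, the 95% exact Clopper-Pearson interval was 0.0117% to 0.0136%, and in Het 1, the lowest, 0.00163% to 0.00237%. The intervals cover counting error only, and the libraries of each group differ by more than that. There were 390, 1993, 719 and 356 insulin reads for each Gcg read in KO 1 to KO 4, against 4206, 2338, 2209 and 1168 in Het 1 to Het 4.

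Sst, which encodes somatostatin, a hormone that restrains its neighbours, did not differ at the adjusted threshold. It had 391, 348, 576 and 368 normalized counts in KO 1 to KO 4, against 215, 139, 481 and 255 in Het 1 to Het 4. All 4 KO libraries exceeded Het 1, Het 2 and Het 4, and Het 3 exceeded all but KO 3. The log2 fold change was 0.74 ± 0.50 (SE; limma unadjusted p = 0.135, adjusted p = 0.884), and the two-sided exact permutation p was 0.114. Leaving out 1 library gave values from 0.47 ± 0.60 without Het 2 (limma adjusted p = 0.995) to 1.06 ± 0.57 without Het 3 (adjusted p = 0.770).

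Ppy, the pancreatic polypeptide gene of PP cells, did not differ at the adjusted threshold, and its size rested on single libraries. It had 87.8, 107, 245 and 32.7 normalized counts in KO 1 to KO 4, against 55.1, 73.8, 36 and 68.9 in Het 1 to Het 4. KO 3 stood at more than any other library, and KO 4 below all of them. The log2 fold change was 0.72 ± 0.41 (SE; limma adjusted p = 0.819), 0.26 ± 0.40 without KO 3 (adjusted p = 0.704) and 1.22 ± 0.42 without KO 4 (adjusted p = 0.128). The reads behind it numbered 55 to 222 in KO libraries and 42 to 85 in Het libraries.

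Its relatives Pyy and Npy gave other patterns. Pyy, best known as a gut satiety hormone, had 91.4, 77.7, 56.3 and 53.6 normalized counts in KO 1 to KO 4, against 65.3, 65.0, 62.6 and 80.2 in Het 1 to Het 4. The Het values lay within the KO range, and the log2 fold change was 0.00 ± 0.40 (SE; limma adjusted p = 1.00) and -0.22 ± 0.25 with TMM scaling. Npy, a neuropeptide of sympathetic nerves that is also found in immature rodent beta cells, had 26.9, 62.1, 30.9 and 50.6 in KO 1 to KO 4, against 46.1, 67.5, 76.3 and 69.7 in Het 1 to Het 4. Het 2, Het 3 and Het 4 lay above all KO libraries, and Het 1 lay below KO 2 and KO 4. The log2 fold change of Npy was -0.65 ± 0.40 (SE; limma adjusted p = 0.845) and -0.87 ± 0.34 with TMM scaling (limma unadjusted p = 0.019, adjusted p = 0.441). It rested on 28 to 85 reads in KO libraries and 36 to 89 in Het libraries.

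Ucn3 (ENSMUSG00000044988, chromosome 13, 3940688 to 3945349, minus strand) marks mature mouse beta cells. Its normalized counts were 1403, 4593, 1295 and 725 in KO 1 to KO 4, against 1913, 2579, 3034 and 1828 in Het 1 to Het 4. KO 1, KO 3 and KO 4 lay below every Het library, and KO 2 lay above all of them. The log2 fold change was -0.54 ± 0.60 (SE; limma adjusted p = 0.948), and -0.76 ± 0.36 with TMM scaling (limma unadjusted p = 0.048, adjusted p = 0.582). Without KO 2 it was -1.06 ± 0.58, and without KO 4 it was -0.17 ± 0.64. As a share of all reads Ucn3 took 0.00985%, 0.0274%, 0.0219% and 0.0134% in KO 1 to KO 4, against 0.0252%, 0.0293%, 0.0276% and 0.0279% in Het 1 to Het 4. On this scale the Het libraries lay close together and KO 1 and KO 4, the libraries with the least insulin, lay lowest, and the log2 difference in share was -0.71 ± 0.34 (two-sided exact permutation p = 0.0571). Of all tested genes, 6.7% were higher and 2.34% lower in share of reads at an exact p under 0.05, and no member was.

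Ttr (ENSMUSG00000061808) is expressed in alpha cells and also in beta cells of the mouse. Its normalized counts were 1199, 1662, 941 and 604 in KO 1 to KO 4, against 675, 1154, 2023 and 885 in Het 1 to Het 4. The groups were interleaved, with KO 4 lowest and Het 3 highest, and the log2 fold change was -0.07 ± 0.57 (SE; limma adjusted p = 0.994). Its sign turned without KO 4 (0.18) and without Het 3 (0.22). Gast (ENSMUSG00000017165, chromosome 11, 100334407 to 100336996, plus strand) had 2 to 5 reads in each library and was under the minimum for testing. Its normalized counts were 4.48, 3.88, 4.41 and 2.98 in KO 1 to KO 4, against 6.41, 2.50, 4.29 and 1.62 in Het 1 to Het 4. A difference in Gast was not detectable at this depth.

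**Figure D3:**
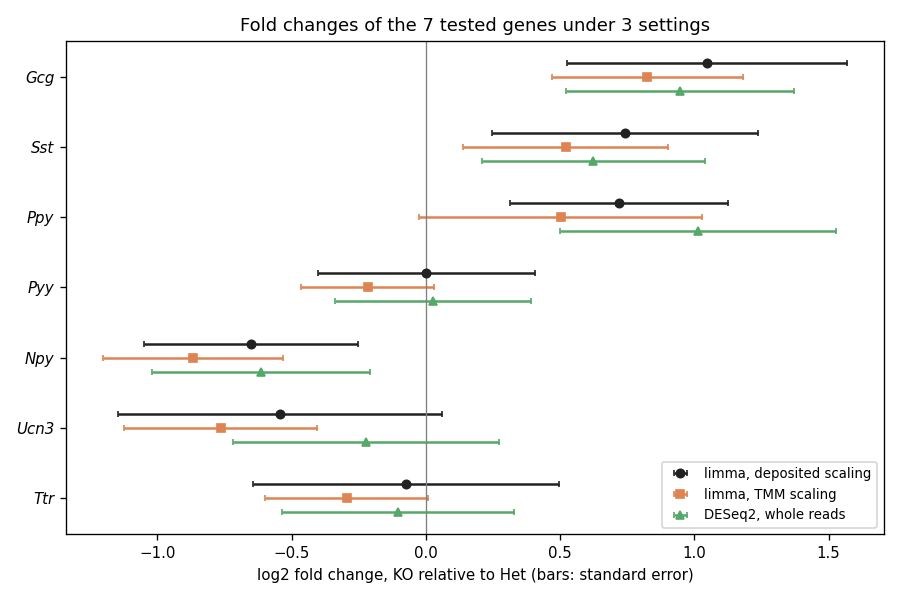
Log2 fold change of KO relative to Het (horizontal axis) with its standard error for the 7 tested genes under the deposited scaling, TMM scaling and DESeq2. Gcg, Sst and Ppy lie right of 0 and Npy and Ucn3 left of 0 in all 3 settings, and none passed the adjusted threshold.

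A ratio taken within a library does not depend on how libraries were scaled, so each gene was also set against the summed Ins1 and Ins2 counts. For the log2 differences 1 was first added to the member's normalized count, so those of low genes depend slightly on scaling. For Gast the log2 difference was 0.87 with that addition and 0.96 without it. Gcg had 25.7, 5.02, 13.9 and 28.1 counts per 10000 insulin counts in KO 1 to KO 4, against 2.38, 4.28, 4.53 and 8.56 in Het 1 to Het 4. KO 1, KO 3 and KO 4 exceeded every Het library, and KO 2 lay below Het 4. The log2 difference was 1.75 ± 0.68 (SE; two-sided exact permutation p = 0.0571). Sst had 10.2, 2.99, 10.7 and 21.3 per 10000 in KO 1 to KO 4, against 3.41, 1.90, 4.21 and 4.62 in Het 1 to Het 4. Its log2 difference was 1.44 ± 0.65 (exact p = 0.114), with the same 3 KO libraries above all Het libraries. For Ppy the ratios were 2.29, 0.921, 4.54 and 1.89 in KO 1 to KO 4, against 0.874, 1.01, 0.315 and 1.25 in Het 1 to Het 4, a log2 difference of 1.42 ± 0.64 (exact p = 0.0857). KO 2 again lay among the Het libraries.

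The remaining genes moved less against insulin. The log2 difference in ratio was 0.70 ± 0.59 for Pyy (SE; exact permutation p = 0.257), 0.63 ± 0.35 for Ttr (exact p = 0.229), 0.87 ± 0.61 for Gast (exact p = 0.257), 0.16 ± 0.20 for Ucn3 (exact p = 0.429) and 0.05 ± 0.61 for Npy (exact p = 0.971). Ucn3 had 36.6, 39.4, 24.0 and 41.9 per 10000 insulin counts in KO 1 to KO 4, against 30.3, 35.3, 26.6 and 33.1 in Het 1 to Het 4. Its standard error was the smallest of the 8 genes, and KO 3, not KO 2, was its lowest value here. Iapp, the companion hormone of beta cells, had 2928, 1320, 1475 and 2181 per 10000 in KO 1 to KO 4, against 958, 1044, 1018 and 1017 in Het 1 to Het 4. Its groups did not overlap, and its log2 difference was 0.90 ± 0.27 (exact p = 0.0286).

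The size of these differences varied with the denominator, and its cause was not tested. None of the 8 members passed an exact p of 0.05, but 11.7% of all tested genes were higher against insulin at that p and 0.00465% lower, and the median tested gene had a log2 difference of 0.75. Against the geometric mean of 7 other beta-cell genes (Slc2a2, G6pc2, Slc30a8, Ero1b, Mafa, Pdx1 and Nkx6-1) the median tested gene was at 0.04, and 5.02% were higher and 0.423% lower. On that scale the log2 difference was 1.03 ± 0.58 for Gcg (exact permutation p = 0.143), 0.73 ± 0.64 for Sst, 0.71 ± 0.85 for Ppy and 0.18 ± 0.30 for Iapp, and it was -0.56 ± 0.30 for Ucn3 (exact p = 0.143) and -0.66 ± 0.42 for Npy. It was -0.012 ± 0.41 for Pyy and -0.088 ± 0.29 for Ttr, both smaller than their standard errors. The positive difference of Ucn3, Npy, Pyy and Ttr against insulin was thus negative against these 7 genes. For Ucn3 and Npy the positive values had been smaller than their standard errors, so these changes of sign are not clear differences.

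**Figure D4:**
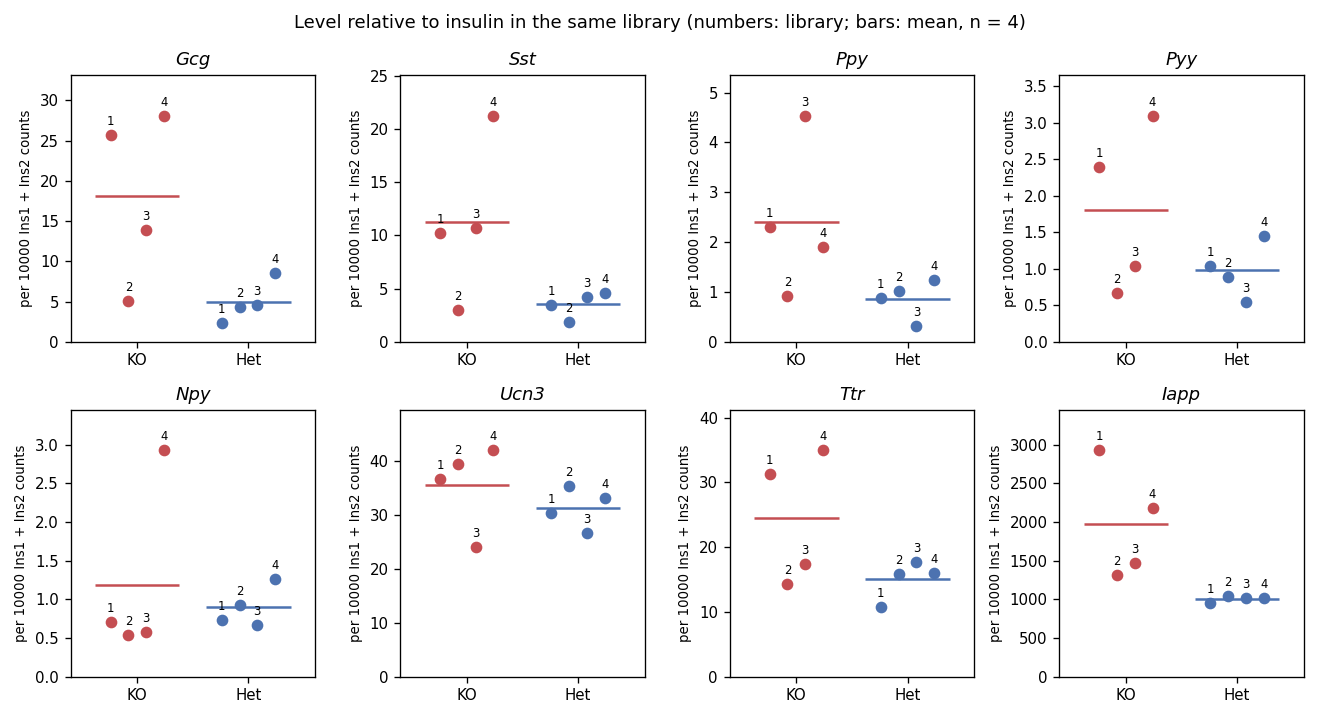
Counts per 10000 Ins1 + Ins2 counts (vertical axes, from 0) of 7 of the genes and of Iapp in each KO and Het library, with library numbers and a bar at each mean of 4. KO 1, KO 3 and KO 4 lie above all Het libraries for Gcg, Sst and Ppy while KO 2 does not, and only the Iapp panel separates the groups.

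The 4 hormones of other islet cells were then added up. Gcg, Sst, Ppy and Pyy together took 0.0109%, 0.00667%, 0.0275% and 0.0174% of reads in KO 1 to KO 4, against 0.00640%, 0.00671%, 0.00998% and 0.0134% in Het 1 to Het 4. KO 3 and KO 4 had the highest summed shares, and KO 2 had less than 3 of the 4 Het libraries. Gcg made up 63.3%, 52.3%, 46.1% and 51.7% of this sum in KO 1 to KO 4, against 30.9%, 53.0%, 47.1% and 53.9% in Het 1 to Het 4. Het 1 was the library where Sst, at 44.3%, had more reads than Gcg. The summed reads numbered 864 to 1732 in KO libraries and 379 to 1279 in Het libraries. For scale, the 1011 olfactory receptor genes took 0.0302%, 0.0219%, 0.196% and 0.180% of reads in KO 1 to KO 4. In Het 1 to Het 4 they took 0.109%, 0.0691%, 0.0522% and 0.149%. The olfactory sum was also highest in KO 3 and KO 4. It was lowest in KO 2, while the hormone sum was lowest in Het 1. It adds up many more genes than the hormone sum, so the 2 sums are not on a like scale. Per kb of exon in KO 3, the olfactory median was 2.97, against 502 for Gcg, 799 for Sst, 490 for Ppy and 89.1 for Pyy. The part of this background in the hormone shares was not tested.

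**Figure D5:**
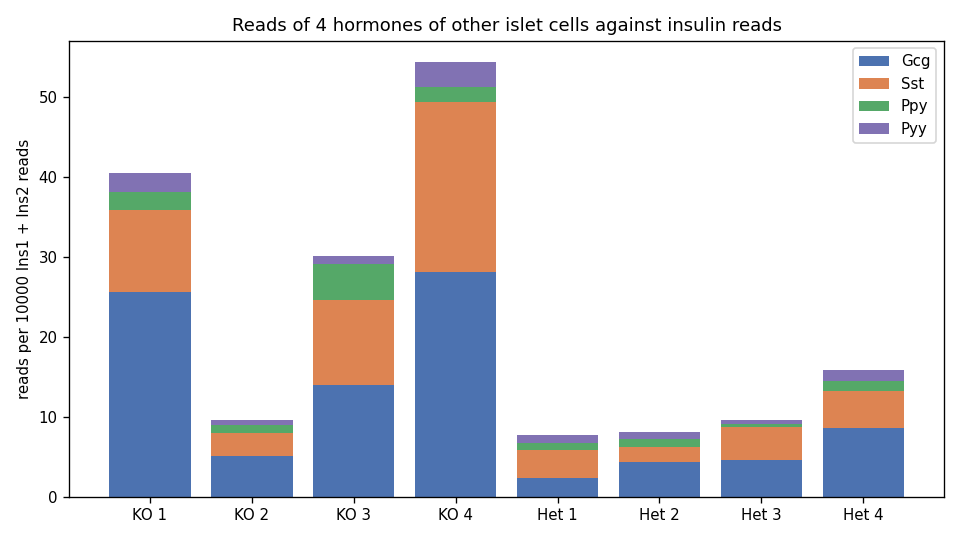
Stacked reads of Gcg, Sst, Ppy and Pyy per 10000 Ins1 + Ins2 reads (vertical axis, from 0), 1 bar per KO or Het library. KO 1, KO 3 and KO 4 stand above all Het bars, and KO 2 stands at the height of the Het bars.

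Ratios between the genes themselves were taken for 9 pairs, with two-sided exact permutation tests. Gcg to Ttr was 0.819, 0.352, 0.797 and 0.805 in KO 1 to KO 4, against 0.222, 0.271, 0.256 and 0.535 in Het 1 to Het 4. KO 2 lay below Het 4 and the other KO libraries lay above it, for a log2 difference of 1.12 ± 0.41 (SE; exact p = 0.0571). Pyy to Gcg had a log2 difference of -1.05 ± 0.43 (exact p = 0.0571). Gcg to Sst, the alpha-cell against the delta-cell hormone, differed by 0.30 ± 0.44 (exact p = 0.543). No pair reached an exact p under 0.05.

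Marker lists of the islet cells that make these hormones were read for whether whole cell programmes moved with them. Of 16 tested alpha-cell markers, 0 were called in either direction, where 0.944% of all tested genes were. Their median log2 fold change was -0.20, against 0.05 for all tested genes. Irx2, a transcription factor of alpha cells, averaged 14.8 ± 4.01 normalized counts in KO and 19.6 ± 5.68 in Het (SD, n = 4 each), and Gc, a vitamin D carrier enriched in alpha cells, 80.3 in KO and 48.0 in Het. The highest normalized counts in the alpha list, not set per length, were of genes that beta cells also express, with Peg3 at 22849 in KO and 25660 in Het and Pcsk1n at 3075 in KO and 3546 in Het. Its summed level ran from 10191 to 65930 in KO libraries and 25222 to 47215 in Het libraries. The part that these markers play in the Gcg levels was not tested.

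Delta-cell markers likewise gave 0 calls among 13 tested (median log2 fold change -0.11). Of all tested genes, 0.921% were called higher and 0.0233% lower, so lists of this size leave few calls to be seen. Hhex, the regulator that delta cells need, averaged 10.1 ± 4.67 in KO and 12.8 ± 3.14 in Het, close to the minimum mean of 10 for testing. The sum of the delta list was 2118 to 8593 in KO libraries and 3619 to 5581 in Het libraries. Its highest counts were for Sgsm1, at 1635 in KO and 1483 in Het, and Frzb, at 1185 in KO and 1221 in Het. Not set per length, these exceeded Sst itself, at 421 in KO and 273 in Het. Of 12 tested PP-cell markers, 1 was called higher (median log2 fold change 0.07, and -0.15 with TMM scaling). The PP list summed to 2610 to 8576 in KO libraries and 3610 to 5453 in Het libraries. Its highest counts were for Cplx2, at 3269 in KO and 2762 in Het, and Meis2, at 1296 in KO and 943 in Het. Ppy itself averaged 118 in KO and 58.4 in Het. How much of the delta and PP sums came from delta or PP cells was not tested. The called gene was Vipr2, a receptor for vasoactive intestinal peptide, at 129 ± 118 in KO and 28.8 ± 6.83 in Het, with a log2 fold change of 1.74 ± 0.40 (SE; limma adjusted p = 0.002). Its KO range of 41.9 to 299 did not overlap its Het range of 22.3 to 37.3, and with TMM scaling its log2 fold change was 1.52 (adjusted p = 0.212). Of 4 epsilon-cell markers 0 were called (median -0.14), and of 20 beta-cell markers 0 were called (median -0.04). No alpha-cell or beta-cell marker was at 0 in any library, while Neurog3 of the delta list, Aqp3 of the PP list and Mboat4 of the epsilon list were each at 0 in 1 library.

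No marker of cells outside the endocrine islet was called higher in KO, where 0.921% of all tested genes were called higher and 0.0233% lower. At such shares, lists of this size leave few calls to be seen. Of 8 tested acinar markers 0 were called (median log2 fold change -0.07), and the 20 listed digestive enzyme genes summed to 105 to 298 in KO libraries and 147 to 231 in Het libraries. The genes Cela2a, Amy2a5, Amy2b and Sycn, were at 0 in at least 1 library. Among 9 duct markers, 1 was lower, the keratin gene Krt19, at 17.7 ± 7.86 in KO and 78.3 ± 82.2 in Het (log2 fold change -1.69 ± 0.41, limma adjusted p = 0.005; with TMM scaling -1.90, adjusted p = 0.16). Among 6 macrophage markers, 1 was lower, the complement gene C1qa, at 86.9 ± 83.1 in KO and 227 ± 43.8 in Het (log2 fold change -1.79 ± 0.43, limma adjusted p = 0.005; with TMM scaling -2.01, adjusted p = 0.003). None were called among 9 endothelial markers (median -0.21), 9 of stellate cells and fibroblasts (median -0.31), 8 of lymphocytes (median -0.43) and 8 of Schwann cells and neurons (median -0.21). The median of the duct list was -0.31 and that of the macrophage list -0.42. The highest normalized counts in the duct list were those of Krt18, at 4104 in KO and 4417 in Het, and Epcam, at 2380 in KO and 2400 in Het, both of which islet endocrine cells also express.

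The receptors through which these peptides act were measured in the same cells. Of 11 tested receptor and peptidase genes 0 were called, where 0.944% of all tested genes were, with a median log2 fold change of -0.34. Glp1r, the receptor for the gut product of Gcg, averaged 6562 ± 5857 normalized counts in KO and 7477 ± 2111 in Het (SD, n = 4 each). Gcgr, the glucagon receptor, averaged 112 ± 71.2 in KO and 132 ± 36.3 in Het, and Gipr, the receptor of a gut incretin, 571 ± 373 in KO and 572 ± 169 in Het. Sstr3, a somatostatin receptor, averaged 1465 ± 1079 in KO and 1123 ± 288 in Het. Crhr2, the receptor of urocortin 3 that delta cells carry, was at 14.2 ± 10.1 in KO and 22.4 ± 7.23 in Het (log2 fold change -0.84 ± 0.45, limma adjusted p = 0.789). Dpp4, the peptidase that cleaves several of these hormones, was at 790 ± 616 in KO and 1056 ± 289 in Het.

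Further peptide genes and the regulators of islet hormone genes gave no calls either, where 0.944% of all tested genes were called. Of 37 other peptide hormones and neuropeptides, 13 passed the minimum and 0 were called (median log2 fold change -0.11). Iapp averaged 95825 ± 49265 normalized counts in KO and 77253 ± 27339 in Het, and Nucb2, the precursor of nesfatin, 3820 in KO and 3473 in Het. Ghrl, which encodes ghrelin of epsilon cells, was at 10.7 ± 6.28 in KO and 11.7 ± 5.88 in Het. Adcyap1, a neuropeptide that raises insulin secretion, was at 10.4 ± 7.84 in KO and 19.7 ± 3.87 in Het, with a log2 fold change of -1.15 ± 0.48 (limma unadjusted p = 0.018, adjusted p = 0.518). Of 21 tested islet transcription factors 0 were called (median 0.10, and -0.12 with TMM scaling). Mafa, the activator of insulin genes in mature beta cells, averaged 3699 ± 2177 in KO and 2356 ± 625 in Het, and Pax6, which is needed for several islet hormones, 3509 ± 2050 in KO and 2914 ± 753 in Het.

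Genes whose levels followed each member most closely were ranked by Pearson's r of log2 TMM-scaled values over the 8 libraries, with 10483 genes averaging 50 or more searched. The libraries share their groups and their depth, so r is descriptive. A highest r picked from so many genes over 8 libraries is also raised by that choice. The leading gene was Commd1 for Gcg (r = 0.99), Nsun4 for Sst (0.93), Blvra for Ppy (0.98), Fgfr2 for Pyy (0.89), Kcnh8 for Npy (0.97), Idi1 for Ucn3 (0.99) and Arxes2 for Ttr (0.95). The next were Pls3 and D3Ertd751e for Gcg, Tmem143 and Fez1 for Sst, Fam162a and Ppp3cc for Ppy, and Diaph3 and Evl for Pyy. For Npy they were Pkhd1 and Nav3, for Ucn3 Insig1 and Hmgcs1, and for Ttr Spon2 and Cpn1. Among the members and beta-cell hormones, Ucn3 followed Ins2 (r = 0.95) and Ins1 (0.93), Ttr followed Ins1 (0.78) and Gcg followed Sst (0.68). The r of Gcg was 0.15 with Iapp and -0.47 with Ucn3.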

How the data were processed

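Beta cells were obtained by sorting YFP-positive cells from dissociated islets, and RNA libraries were prepared with a stranded, low-input total RNA kit of the SMARTer line (Takara), per the labels' protocols. The tools that appear in the submitters' processing notes are STAR 2.7.3a, HTSeq, UMI-tools, FastQC 0.11.8 and DESeq2 1.28.1, with the build mm10 and no role for each. The strand setting and the annotation are not given in the sources used here.

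The deposited signal values are gene counts that the authors divided by 1 size factor per library. In every library 100% of values were whole multiples of the value of 1 read (tolerance 0.001), which gave back the counts assigned to genes. These are called reads here, and shares of reads are shares of their total. Whether duplicates had been removed from them is not given. These size factors equal DESeq2's (ratio 1). No pair of replicates agreed within sampling noise, and KO libraries differed more among themselves than Het libraries did. The chi-square per degree of freedom ran from 24.6 to 60.0 between KO libraries and from 3.15 to 10.4 between Het libraries. The limma fit used a common spread for both groups. GENCODE M21 held 42961 of the symbols and gave coordinates and exon lengths; Ero1b and Cltrn were also matched by their other symbols.

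Genes were tested in R 4.3.3 with limma 3.58.1 on log2(value + 1), mean at least 10, genotype only, eBayes with trend and robust settings, two-sided, with Benjamini-Hochberg adjustment over all 21498 genes and a threshold of 0.05. Fold changes are on that log2 scale and understate changes of low genes. The total degrees of freedom came to 128988, so p-values rest on a spread shared by genes of like level. edgeR 4.0.16 and DESeq2 1.42.0 on the recovered reads, TMM scaling, other pseudocounts and filters, and leaving out each library were alternatives. Ratios were tested by two-sided exact permutation. No p was adjusted over the members alone.

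The members and the 15 marker and gene lists were chosen with earlier results of these data known. Named genes are the members, Ins1, Ins2, Iapp and Adar, list genes that were called, the 2 of highest mean in a list, and the 3 genes most like each member; other list genes named for their known role were chosen after their values were seen. The fit was tested on simulated data with the same spread in both groups and no shifts in level between whole libraries. Here the KO libraries spread more than the Het libraries and shifted in level, which that test did not cover. Intervals cover counting error only.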

Additional observations from a re-analysis of the deposited data

Results flagged for a closer look

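In 44 groups of 4 libraries, the highest or lowest library was set against the others by Dixon's test at the 95% level, which flags about 1 in 20 groups by chance. It marked 3. Npy had 2.93 counts per 10000 insulin counts in KO 4, where the other KO libraries had 0.533 to 0.702. Pyy had 80.2 normalized counts in Het 4, where the other Het libraries had 62.6 to 65.3. Gast had 0.102 counts per 10000 insulin counts in Het 1, from 5 reads. The highest Npy value stands in the library with 3.20% insulin reads, and the part of that low share in it was not tested.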

How the results depend on the processing

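No member passed the adjusted threshold under any of the 18 alternatives. The fold changes of Gcg, Sst and Ppy stayed positive and those of Npy and Ucn3 negative in each alternative that gave a value. Pyy turned negative with TMM scaling (-0.22) and edgeR (-0.24), and ran from -0.14 to 0.11 when 1 library was left out, and Ttr from -0.30 to 0.22. The median of all tested genes moved from 0.05 to -0.16 with TMM scaling. Over all tested genes, 127 were called higher and 1 lower without trend or robust settings, 2 lower at a mean of at least 50, 8 lower with TMM scaling and with edgeR, and 3 lower with DESeq2. With TMM factors taken from, and the test limited to, genes averaging 200 or more, chosen after seeing the data, 404 were higher and 284 lower, among them no member. Leaving out 1 library gave 105 (without KO 1) to 338 (without KO 3) higher and 1 (without Het 1) to 46 (without KO 3) lower; without Het 1, 129 were higher, and without KO 2 and KO 4, 18 and 34 were lower. The causes were not tested. Against the 7 beta-cell genes and against the library total, the ratio difference was -0.012 and -0.16 for Pyy, -0.66 and -0.82 for Npy, -0.56 and -0.71 for Ucn3, and -0.088 and -0.24 for Ttr. For Npy it ran from -0.52 (without KO 4) to 0.30 with 1 library left out, and was -0.03 without Het 1 and -0.08 without Het 3. For Gcg it ran from 1.44 to 2.27. Deviations of same-numbered libraries correlated at -0.28, 0.27, -0.55 and 0.63, under the deposited scaling with its differences in level between whole libraries. The unlike-numbered KO 2 and Het 3 gave 0.63 as well. Whether the numbers mark a shared batch therefore cannot be judged from these correlations. With the replicate block 182 genes were called higher and 5 lower, with no member. Depth limits Gast most, at 2 to 5 reads in a library.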
